A study of Mus musculus with 16 samples.

Results

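Mouse liver that lacked Rassf1a and had also lost 1 copy of Sav1 was compared with liver that lacked Rassf1a alone. The comparison was taken by its genotype labels, as the 4 arrays of Rassf1a-/- Sav1+/- liver (the double genotype below) against the 4 arrays of Rassf1a-/- liver, which are 8 of the 16 arrays in the study. Every mouse was of strain 129, and both groups carried the homozygous Rassf1a deletion, so that the Sav1 copy number was the labelled difference between them. The remaining 8 arrays were 4 of wild-type and 4 of Sav1+/- liver, which gave the same loss of 1 Sav1 copy with Rassf1a present. Total liver RNA was labelled with biotin and hybridised to Affymetrix whole-transcript arrays. The labels used here give no age, sex, treatment or hour of collection, and do not say whether each array was a separate animal, and any p-value therefore reflects array-to-array spread, which may be technical. Array numbers below follow the order of deposit and pair nothing across genotypes.

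SAV1 (Salvador) is the scaffold of the Hippo pathway that binds the MST kinases (Stk3 and Stk4) through a SARAH domain and helps them to phosphorylate LATS kinases. LATS in turn phosphorylates the co-activators YAP and TAZ, which keeps them out of the nucleus and off TEAD transcription factors. RASSF proteins carry the same SARAH domain and can also bind MST kinases, and the 1A isoform of RASSF1 is known for binding microtubules. In liver the pathway is known for its hold on organ size and tumour formation, and deletion of both Sav1 copies in liver is known to enlarge the organ.

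The array measured 35556 probe sets, of which 21789 named exactly 1 gene. Probe sets were tested where they lay at or above the array's 40th percentile (a log2 signal of 7.16 to 7.44) on at least 4 arrays, and the brightest per gene was used, which left 13152 genes. Values below are log2 signals, and a difference is the mean of the double genotype minus the mean of Rassf1a-/-. Each was fitted with limma over all 16 arrays, with p-values adjusted by Benjamini-Hochberg over the 13152 genes and called at an adjusted p under 0.05. Whole-array correlations ran from 0.928 to 0.984 among the Rassf1a-/- arrays, from 0.917 to 0.972 among the double-genotype arrays, and from 0.911 to 0.982 between the groups. The median difference over all genes was 0.07, and centring each array on its median moved it by -0.11 to -0.03. With that centring 45.0% of genes were higher in the double genotype, against 60.3% without it, so a difference near 0 has no settled sign. Signal of the Y-linked genes was high (mean of 8.87 or more) on array 2 of Rassf1a-/- and on arrays 1 and 2 of the double genotype, and at most 4.17 on the other arrays of both groups. It was also high on 2 Sav1+/- arrays and on 0 wild-type arrays. Across the 16 arrays the X-linked Xist read at most 4.31 where Y-linked signal was high, and at least 10.34 elsewhere. Male-biased liver genes had a median difference of 0.98, and 0.09 with the Y-linked mean in the fit. Comparisons were therefore repeated on the 3 Rassf1a-/- and 2 double-genotype arrays of low Y-linked signal.

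Sav1 itself was lower when 1 copy was missing, on either Rassf1a background. It read 8.68, 8.46, 8.54 and 8.78 on the Rassf1a-/- arrays and 7.63, 7.73, 7.30 and 7.96 on the double-genotype arrays, so every array of the double genotype lay below every array of Rassf1a-/-. The means were 8.61 ± 0.14 (SD, n = 4) and 7.65 ± 0.27 (SD, n = 4). The difference of -0.96 (SE 0.17, 1.95-fold lower) missed the threshold in the limma fit across all genes (adjusted p = 0.0613). With Rassf1a present the same step was -0.90, from a mean of 8.53 in wild type to 7.64 in Sav1+/-. The difference between the steps was -0.07 (95% interval -0.59 to 0.45, limma adjusted p = 0.957). The array cannot check the Rassf1a-/- label in the same way, because its Rassf1 probe set was dim and is not known to lie in the deleted part. Rassf1 read a mean of 7.44 in wild type, 7.20 in Rassf1a-/- and 7.56 in the double genotype.

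**Figure D1:**
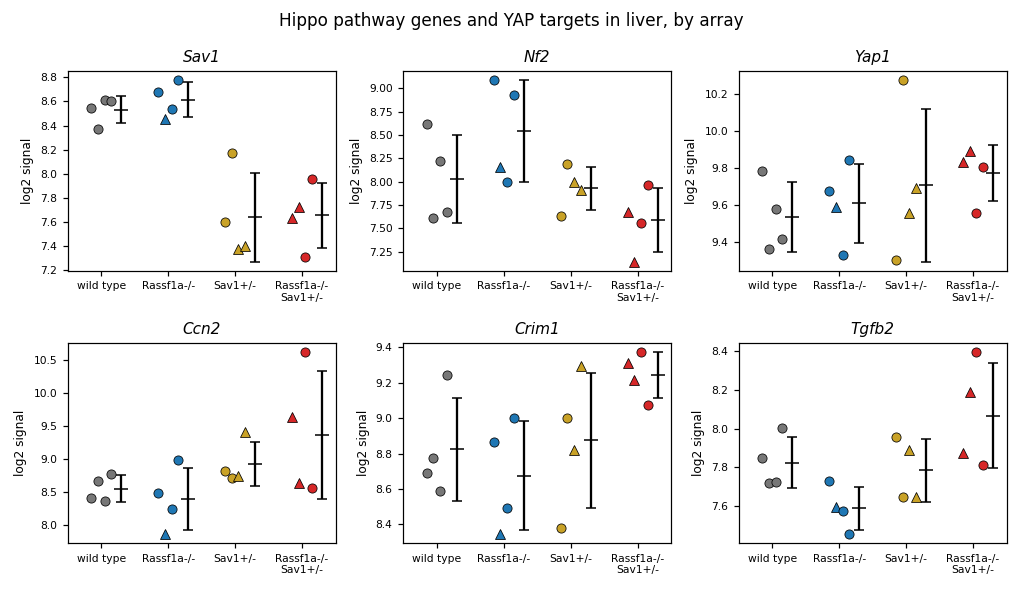
Log2 signal of Sav1, Nf2, Yap1 and the YAP target genes Ccn2, Crim1 and Tgfb2 on each of the 16 arrays, grouped by genotype; each point is 1 array, triangles mark arrays of high Y-linked signal, and bars give the mean and SD of 4 arrays. The double-genotype arrays lie between 7.30 and 7.96 for Sav1, below all 4 Rassf1a-/- arrays, and overlap them for Yap1 and Ccn2.

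Across all genes 1 passed the threshold, Lrrc51, which encodes a leucine-rich repeat protein. That is 0.0076% of the genes tested, and no gene passed in the higher direction (0%). Lrrc51 read 8.15, 8.20, 8.32 and 8.26 in Rassf1a-/- and 7.03, 6.80, 7.17 and 7.57 in the double genotype. Arrays 1, 2 and 3 of the double genotype thus lay below their own brightness filter levels of 7.40, 7.42 and 7.43. Lrrc51 was lower by 1.09 (SE 0.16, 2.13-fold lower, limma adjusted p = 0.0329). Wild-type and Sav1+/- liver lay between, at 7.82 and 7.58. The call was lost when any 1 of the wild-type or Rassf1a-/- arrays, or array 1, 2 or 3 of the double genotype, was left out, with an adjusted p of up to 0.181.

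Although 1 gene was called, the smallest p-values were not evenly split by direction. At an adjusted p under 0.1 there were 181 genes (1.38%), of which 175 were lower in the double genotype and 6 were higher. The 4 double-genotype arrays lay below all 4 Rassf1a-/- arrays for 784 genes (5.96%) and above them for 507 (3.85%), so 1291 genes in all did not overlap (9.82%). Of all genes 60.3% were above 0 and 39.7% below. At an unadjusted p under 0.05, 1081 genes were lower (8.22%) and 853 higher (6.49%). Genes without overlap were more frequent among bright probe sets, in either direction. With the genes put in 5 equal bins by mean signal, all 4 double-genotype arrays lay below for 12.5% of the brightest bin and 1.14% of the dimmest. The 4 arrays lay above for 6.65% of the brightest and 3.19% of the dimmest bin. On the 5 arrays of low Y-linked signal, where 3 against 2 arrays separate more easily, 9.36% of genes lay below and 9.80% above.

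The genes with the smallest p-values in the lower direction, after Lrrc51, did not pass the threshold. Ndufb9, an accessory subunit of respiratory complex I, read 12.94, 12.96, 12.82 and 12.98 in Rassf1a-/- and 12.36, 12.05, 12.37 and 12.18 in the double genotype. The groups were far apart relative to their spread, and the difference was -0.68 (SE 0.12, adjusted p = 0.0613). Ndufb2, another complex I subunit, differed by -0.99 (SE 0.18) with the same adjusted p. Higd1a, a small inner-membrane protein that binds respiratory complexes, read 8.63, 9.32, 8.93 and 9.10 against 8.11, 8.12, 7.80 and 8.19, and its second probe set was also lower, by -0.53. Guk1, the guanylate kinase that turns GMP to GDP, had means of 10.45 ± 0.16 and 9.69 ± 0.16 (SD, n = 4 each), a difference of -0.77. Lsm7, a subunit of the ring that binds U6 snRNA and decaying messages, differed by -1.10 on one probe set and -0.96 on another.

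Another gene in that group was Spopl, a substrate adaptor of cullin-3 ubiquitin ligases, at -1.08. Bod1, needed for chromosomes to attach to both spindle poles, differed by -0.71. Rpl26, a large-subunit ribosomal protein, differed by -0.69, and Ciao2a, of the cytosolic iron-sulfur assembly machinery, by -0.53. The adjusted p-values of these 4 genes were between 0.0613 and 0.0644. None of the 4 overlapped between the genotypes.

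Genes with the largest lower differences among those whose arrays did not overlap included dim and long non-coding ones. Knl1, the kinetochore scaffold, differed by -1.58 (adjusted p = 0.178), with array 2 of the double genotype at 3.59 and the other 3 between 5.60 and 5.95. The zinc finger gene Zfp931 differed by -1.40 (adjusted p = 0.0929), from a mean of 7.50 to 6.10. The long non-coding RNAs Lncpint, Pvt1 and Mir99ahg differed by -1.17, -1.11 and -1.11. For Pvt1 and Mir99ahg other probe sets of the gene did not follow, at 0.41 for Pvt1 and between -0.75 and 0.16 for Mir99ahg. Leap2, a liver peptide that opposes ghrelin at its receptor, read 10.79, 11.19, 11.17 and 11.20 against 9.84, 9.58, 10.42 and 10.08. That put the double genotype, at a mean of 9.98, at the level of wild type (9.98) and Sav1+/- (9.99), with a difference from Rassf1a-/- of -1.11 (SE 0.33, adjusted p = 0.142). Ntrk2, the receptor for BDNF, differed by -1.13 (adjusted p = 0.0934), and the microRNA gene Mir6516 by -1.14 (adjusted p = 0.235).

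In the higher direction the smallest adjusted p was 0.0768, for Pacc1, a proton-activated chloride channel. Pacc1 read 7.21, 7.19, 7.31 and 7.39 in Rassf1a-/- and 7.92, 7.92, 7.85 and 7.70 in the double genotype, a difference of 0.58 (SE 0.13). Its wild-type and Sav1+/- means were 7.69 and 7.63, so the Rassf1a-/- group was the lowest of the 4. Tnfrsf19, a TNF receptor family member known as a Wnt target, was also lowest in Rassf1a-/-: 6.69 in Rassf1a-/-, against 7.59 for wild type, 7.73 for Sav1+/- and 7.72 for the double genotype. Its difference was 1.03 (SE 0.24, adjusted p = 0.0916). Mocs3, which supplies sulfur for molybdenum cofactor and tRNA modification, differed by 0.61, and Jag1, a Notch ligand, by 0.55. Pprc1, a co-activator of genes for mitochondria, differed by 0.68 (adjusted p = 0.109). The others by the same rule were Ifna14 (0.67), Trim3 (0.44), Rhbdf1 (0.51), Tekt5 (0.57), Zan (0.58), Rnf215 (0.56) and Il27 (0.54), all at signals under 9.3. Pacc1 passed the threshold when array 2 of Sav1+/- or array 4 of the double genotype was left out, and none of the other genes in this paragraph kept an adjusted p under 0.05 in more than 1 of the 16 leave-outs.

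Larger higher differences came with wider spread. Marco, a scavenger receptor of Kupffer cells, read 6.11, 5.73, 5.60 and 5.57 in Rassf1a-/- and 8.91, 9.01, 6.70 and 6.12 in the double genotype. The double-genotype arrays split into 2 high and 2 low ones, and the high pair were those of high Y-linked signal. The difference of 1.93 (SE 0.70, adjusted p = 0.229) was 0.65 on the arrays of low Y-linked signal. Irak3, an inhibitor of Toll-like receptor signalling, had the same 2 arrays highest, at 10.18 and 9.07 against 8.09 and 8.0, and its difference of 1.27 was 0.41 on the arrays of low Y-linked signal. Serpina7, the thyroxine-binding globulin, read 8.93 to 10.22 in Rassf1a-/- and 10.52 to 11.49 in the double genotype. Its difference of 1.34 (SE 0.46, adjusted p = 0.199) was 1.81 on the low-Y arrays. Lysmd2 and Dlgap2 differed by 1.04 and 0.83, from Rassf1a-/- means of 6.28 and 6.88 that lay below the brightness filter.

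**Figure D2:**
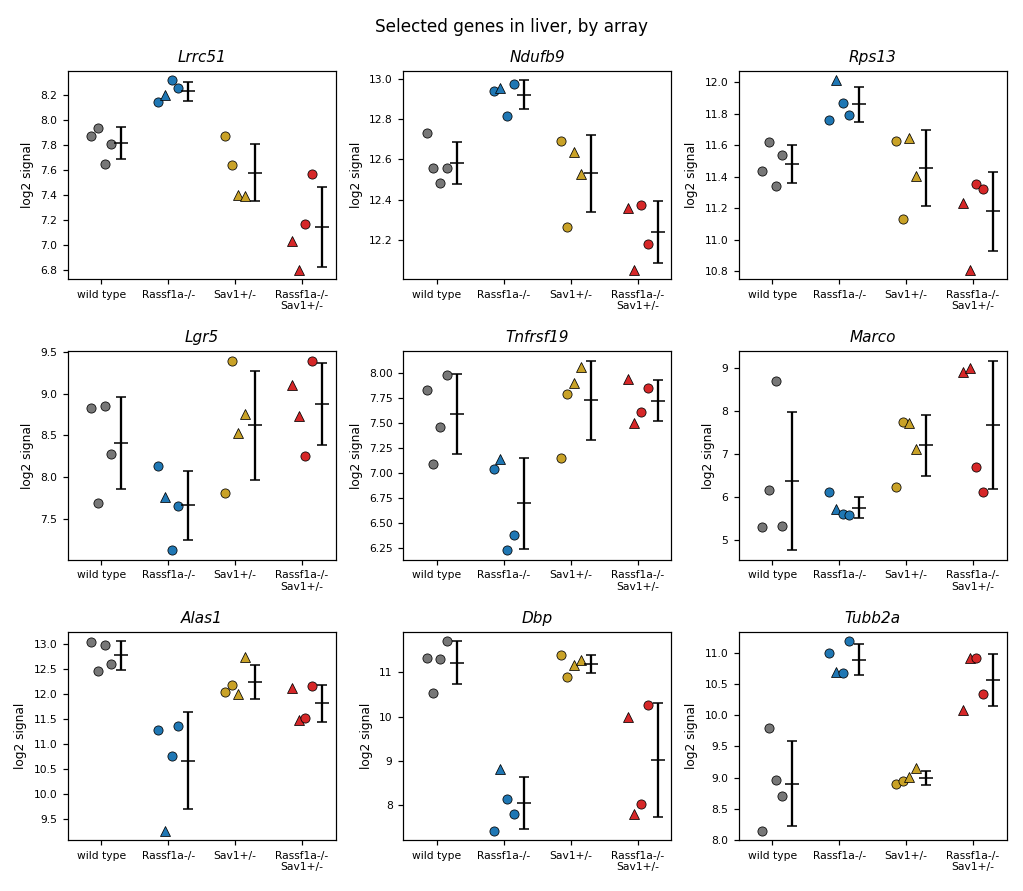
Log2 signal of 9 genes on each of the 16 arrays by genotype; each point is 1 array, triangles mark arrays of high Y-linked signal, and bars give the mean and SD of 4 arrays. Lrrc51, Ndufb9 and Rps13 have all 4 double-genotype arrays below the 4 Rassf1a-/- arrays, Lgr5, Tnfrsf19, Marco and Alas1 have them above, and Dbp and Tubb2a overlap.

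Cytosolic ribosomal protein genes were lower together. These encode the structural proteins of the 40S and 60S subunits, and their messages are among the most abundant in hepatocytes. Of 52 listed genes 38 had a probe set of their own and were tested, and all 38 were below 0, from -0.83 to -0.15, with a median of -0.40 beside 0.07 for all genes. None passed the threshold (smallest adjusted p = 0.0765). For 28 of the 38 (73.7%) the 4 double-genotype arrays lay below the 4 Rassf1a-/- arrays, against 5.96% of all genes and 12.5% of the brightest bin. The same number had an unadjusted p under 0.05.

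Averaged over the 38 ribosomal genes, the Rassf1a-/- arrays read 11.94 to 12.15 and the double-genotype arrays 11.73, 11.35, 11.70 and 11.66, with no overlap. Array 2 of Rassf1a-/- was the highest of its group and array 2 of the double genotype the lowest of all. The means were 12.02 ± 0.09 for Rassf1a-/-, 11.61 ± 0.17 for the double genotype, 11.86 ± 0.06 for wild type and 11.82 ± 0.17 for Sav1+/- (SD, n = 4 each). Between Sav1+/- and wild type the same genes had a median of -0.04, with 13 of 38 higher. All 38 stayed below 0 with each of the 8 arrays left out in turn (medians from -0.43 to -0.32), with quantile normalization (-0.34), with median centring (-0.51) and on the low-Y arrays (-0.28). On those 5 arrays 29 of the 38 did not overlap, against 9.36% of all genes in that direction.

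Rps13, a small-subunit protein, read 11.76, 12.01, 11.87 and 11.79 in Rassf1a-/- and 11.23, 10.81, 11.35 and 11.33 in the double genotype, a difference of -0.68 (SE 0.15, adjusted p = 0.0765). Rps21 read 10.93, 11.46, 11.09 and 11.07 against 10.46, 9.75, 10.68 and 10.34, a difference of -0.83 (SE 0.18, adjusted p = 0.0789). For the large subunit, Rpl9 differed by -0.67 and Rpl6 by -0.53. Ribosomal protein genes have many near-identical processed copies, so a probe set may collect more than 1 of them, and the values of a single gene are uncertain to that extent. The 3 probe sets named for Rps13 gave -0.71, -0.68 and -0.69, and the 8 named for Rpl9 gave between -0.86 and -0.67.

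Respiratory chain genes had the same direction with a smaller size. These encode the nuclear subunits of complexes I to IV and of ATP synthase in the inner mitochondrial membrane. Of 37 tested, 34 were lower and 3 higher, with a median of -0.26, and 22 (59.5%) had all 4 double-genotype arrays below, against 5.96% of all genes and 12.5% of the brightest bin. None passed the threshold (smallest adjusted p = 0.0613). With quantile normalization 29 were lower and 8 higher, with a median of -0.18. With median centring all 37 were lower, with a median of -0.37. The list mean read 11.70, 11.82, 11.68 and 11.75 in Rassf1a-/- and 11.45, 11.38, 11.51 and 11.48 in the double genotype, with no overlap. Wild type had a mean of 11.62 ± 0.07 and Sav1+/- of 11.49 ± 0.11 (SD, n = 4 each), and the step from the one to the other had a median of -0.13 over the same genes.

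Within the list, the lower genes with the smallest p-values were complex I accessory subunits. Ndufa1, a complex I subunit, read 9.28, 9.91, 9.44 and 9.38 against 8.57, 8.77, 8.69 and 8.98, a difference of -0.75 (SE 0.16, adjusted p = 0.0765). Ndufa2 and Ndufa5, also of complex I, differed by -0.59 and -0.64. Among core subunits, Ndufs3, which lies in the arm that takes electrons from NADH, differed by -0.31 (adjusted p = 0.231), and Ndufs1 and Ndufv1 by -0.02 and 0.08. Among the other complexes, Cox7a2 of complex IV differed by -0.57, Sdhb of complex II by -0.39 and Atp5j of ATP synthase by -0.24. The catalytic ATP synthase subunits Atp5a1 and Atp5b differed by 0.03 and -0.13. Outside the list, Uqcr11 of complex III differed by -0.66, and it was called with a brightness filter at the 60th percentile. Uqcr11, Ndufs3, Atp5j, Ndufs1, Ndufv1, Cox7a2, Sdhb, Atp5a1 and Atp5b were picked after their values were seen.

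Gene families were also taken by symbol, after these values were known, and the complex I family shares members with the respiratory chain list. Of 34 complex I genes 31 were lower with a median of -0.39. All 4 double-genotype arrays lay below for 24 (70.6%), against 5.96% of all genes and 12.5% of the brightest bin. Mitochondrial ribosomal proteins were lower for 71 of 77, with a median of -0.34, and 30 (39.0%) had all 4 arrays below, against the same 5.96%. Sm and Lsm genes, which encode the protein rings of spliceosomal RNAs, were lower for 17 of 19 with a median of -0.38. Chromatin remodelling genes, taken by the symbols Chd, Smarc and Arid, were higher for 20 of 26 with a median of 0.14. Of all genes 60.3% were higher, with a median of 0.07. Slirp, which binds mitochondrial messages, differed by -0.68 (SE 0.13, adjusted p = 0.0687), and Lsm1, of the cytoplasmic Lsm ring, by -0.70 (SE 0.14, adjusted p = 0.0765).

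Most proteasome and chaperone genes were also below 0. Of 31 proteasome subunits 25 were lower with a median of -0.16, and 6 (19.4%) had all 4 double-genotype arrays below, against 5.96% of all genes and 12.5% of the brightest bin. Among these 6 were Psmb6 at -0.42 and Psma3 at -0.34. With quantile normalization 11 of the 31 were higher. Of 15 heat shock chaperones 11 were lower with a median of -0.26. Hspe1, the mitochondrial co-chaperone of HSP60, read 12.24, 12.06, 12.34 and 12.25 in Rassf1a-/- and 11.56, 11.35, 11.69 and 11.86 in the double genotype. It was the 1 chaperone of 15 without overlap (6.67%, near the 5.96% of all genes), at -0.60 (SE 0.13, adjusted p = 0.0765), and its second probe set gave -0.73.

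**Figure D3:**
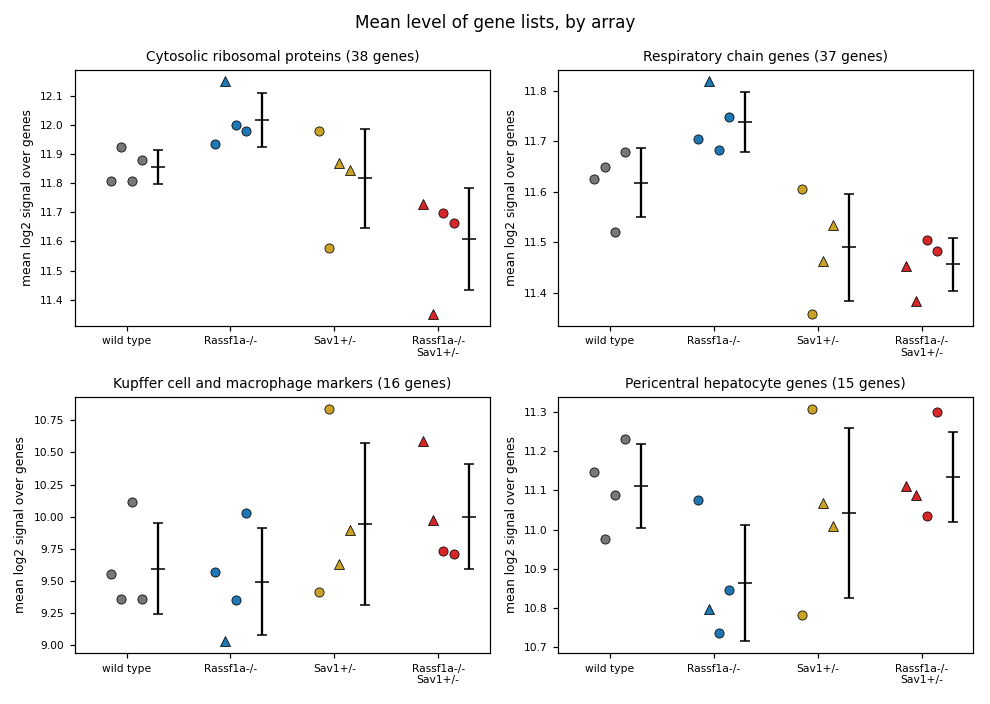
Mean log2 signal over the genes of 4 lists on each of the 16 arrays by genotype; each point is 1 array, triangles mark arrays of high Y-linked signal, and bars give the mean and SD of 4 arrays. Double-genotype arrays lie below all 4 Rassf1a-/- arrays for ribosomal (at most 11.73) and respiratory chain genes (at most 11.51), and overlap them for Kupffer cell markers.

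Because these genes were lower together, the sequence before their start sites was searched for CCGGAAG, the core site of ETS factors such as GABP, on either strand (CTTCCGG on the other) in the 250 bases upstream. Promoters on a single chromosome were left out of the search and of all shares below. The motif was in 13.3% of the 10421 tested genes with a RefSeq promoter on the other chromosomes. It was in 23.6% of those whose 4 double-genotype arrays lay below (152 genes with the motif). Among those whose arrays lay above it was in 13.03% (52 genes). Of 31 cytosolic ribosomal genes with a promoter 10 held it (32.3%), and of 27 respiratory chain genes 3 did (11.1%). Bright genes are more frequent among the lower genes, and the shares were not matched for signal, so the motif's part in the difference was not tested. The 150 bases before the start are shown for the 2 genes of each list with the smallest p-values that held the motif there (RefSeq, build GRCm38.p6, 5′ to 3′ on the gene's strand, motif in capitals).
Rps21, chr2:180257229-180257378, plus strand: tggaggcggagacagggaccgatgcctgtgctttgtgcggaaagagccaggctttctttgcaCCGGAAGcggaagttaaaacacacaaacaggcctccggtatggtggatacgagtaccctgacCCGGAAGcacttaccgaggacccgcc
Rps18, chr17:33955666-33955815, minus strand: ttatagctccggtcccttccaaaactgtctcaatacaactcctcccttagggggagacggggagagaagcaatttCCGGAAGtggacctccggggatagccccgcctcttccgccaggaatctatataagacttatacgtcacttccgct
Ndufs3, chr2:90904722-90904871, minus strand: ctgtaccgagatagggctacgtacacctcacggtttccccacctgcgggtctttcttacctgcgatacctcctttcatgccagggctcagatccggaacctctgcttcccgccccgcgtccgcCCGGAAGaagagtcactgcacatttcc
Atp5j, chr16:84834977-84835126, minus strand: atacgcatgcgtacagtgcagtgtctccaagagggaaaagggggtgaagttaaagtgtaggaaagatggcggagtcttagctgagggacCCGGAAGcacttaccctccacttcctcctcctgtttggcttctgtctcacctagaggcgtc

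The Rps21 stretch holds the motif 2 times and the other 3 hold it 1 time each. Rps18, a small-subunit protein, had means of 12.42 ± 0.13 in Rassf1a-/- and 11.80 ± 0.30 in the double genotype (SD, n = 4 each), a difference of -0.63 (SE 0.16, adjusted p = 0.0936).

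The other tested members of the Hippo kinase cascade differed little from Rassf1a-/- liver, apart from Nf2. Of 10 listed core genes 9 had a probe set of their own, and Stk3 was not among these 9. Of the 9 core genes 7 were higher and 2 lower (Sav1 and Nf2), with a median of 0.16. Nf2 encodes merlin, which brings LATS to the membrane. It read 9.09, 8.15, 7.99 and 8.93 in Rassf1a-/- and 7.68, 7.14, 7.56 and 7.97 in the double genotype, a difference of -0.95 (SE 0.27, adjusted p = 0.118). The highest double-genotype array lay just under the lowest Rassf1a-/- array, and the wild-type mean was 8.03.
The kinases Lats1, Lats2 and Stk4 differed by 0.24, 0.14 and 0.14, and the MOB adaptors Mob1a and Mob1b by 0.20 and 0.25. The co-activators Yap1 and Wwtr1 (TAZ) differed by 0.16 (95% interval -0.22 to 0.54) and 0.19 (-0.15 to 0.53). With median centring these 7 genes lay between 0.03 and 0.14.

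Among 27 Hippo regulators 17 were higher and 10 lower, with a median of 0.05, which was -0.02 without array 3 of Rassf1a-/-. Dchs1, a giant cadherin upstream of the cascade, had no overlap, at 7.37, 6.79, 7.10 and 7.17 in Rassf1a-/- against 7.44, 7.49, 7.79 and 7.64, a difference of 0.48 (adjusted p = 0.252). Of 8 RASSF genes 6 were higher and 2 lower. Rassf7 and Rassf6 differed by -0.61 and -0.58 (adjusted p = 0.227 and 0.324), with arrays 1 and 2 of the double genotype lowest. On the low-Y arrays these 2 differences were -0.24 and -0.12. Rassf1 differed by 0.36 (95% interval -0.05 to 0.77), and its 4 double-genotype arrays lay above the other 4.

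YAP and TEAD target genes were not called in either direction. Of 23 tested, 16 were higher and 7 lower with a median of 0.14, which was 0.04 after median centring. The classical target Ccn2 (CTGF) read 8.49, 7.86, 8.23 and 8.98 in Rassf1a-/- and 9.64, 8.63, 10.63 and 8.55 in the double genotype. Arrays 1 and 3 of the double genotype were high and the other 2 lay among the Rassf1a-/- arrays, and the difference was 0.97 (SE 0.36, adjusted p = 0.234). Tgfb2, a secreted growth factor, differed by 0.48 (SE 0.14, adjusted p = 0.139), and Crim1, a membrane protein that binds BMPs, by 0.57 (SE 0.20, adjusted p = 0.212). These were the 2 targets of 23 whose arrays did not overlap, against 3.85% of all genes. Birc5 (survivin) differed by 0.45 (adjusted p = 0.329).

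The series title names Tbk1 and beta tubulin genes, and their levels in the double genotype were near those of Rassf1a-/-. Tbk1, a kinase of innate immune signalling, read 8.30, 8.33, 8.16 and 8.45 against 8.33, 8.32, 7.73 and 8.57, a difference of -0.08 (95% interval -0.63 to 0.47). All 5 tested beta tubulins were slightly below 0, from -0.33 to -0.05, with a median of -0.14. Tubb2a read 10.68 to 11.18 in Rassf1a-/- and 10.08, 10.91, 10.92 and 10.34 in the double genotype, against a wild-type mean of 8.90. Its difference of -0.33 had a 95% interval of -0.89 to 0.24. Tubb1, Tubb6, Tubb2b and Tubb5 differed by -0.14, -0.14, -0.11 and -0.05, and the sign of Tubb5 turned with quantile normalization (0.02).

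Circadian clock genes, which set daily rhythms in liver, lay between Rassf1a-/- and the other genotypes or close to Rassf1a-/-. The activator Arntl (BMAL1) read 10.08, 10.03, 9.95 and 10.25 against 9.41, 10.15, 9.97 and 9.34, with wild type and Sav1+/- both at 6.71. Its difference was -0.36 (95% interval -1.08 to 0.36). Of 8 repressors 7 were higher with a median of 0.16, which was -0.03 with 4 higher when array 4 of the double genotype was left out. Per2 and Per3 differed by 0.50 and 0.47 (adjusted p = 0.398 and 0.495). The output factor Dbp read 7.42, 8.81, 8.14 and 7.81 in Rassf1a-/-, and 10.001, 7.80, 8.02 and 10.26 in the double genotype. Arrays 1 and 4 of the double genotype stood above the Rassf1a-/- range and the other 2 within it. Arrays 1 and 4 were also the lowest 2 of that group for Arntl and Tubb2a, and the highest 2 for Per2 and Alas1.
Alas1, the first enzyme of haem synthesis, read 11.27, 9.26, 10.76 and 11.35 in Rassf1a-/- and 12.12, 11.47, 11.51 and 12.15 in the double genotype. Its difference was 1.16 (SE 0.35, adjusted p = 0.149), with wild type higher still at 12.77. The labels give no hour of collection, so the part of the hour in these values was not tested.

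**Figure D4:**
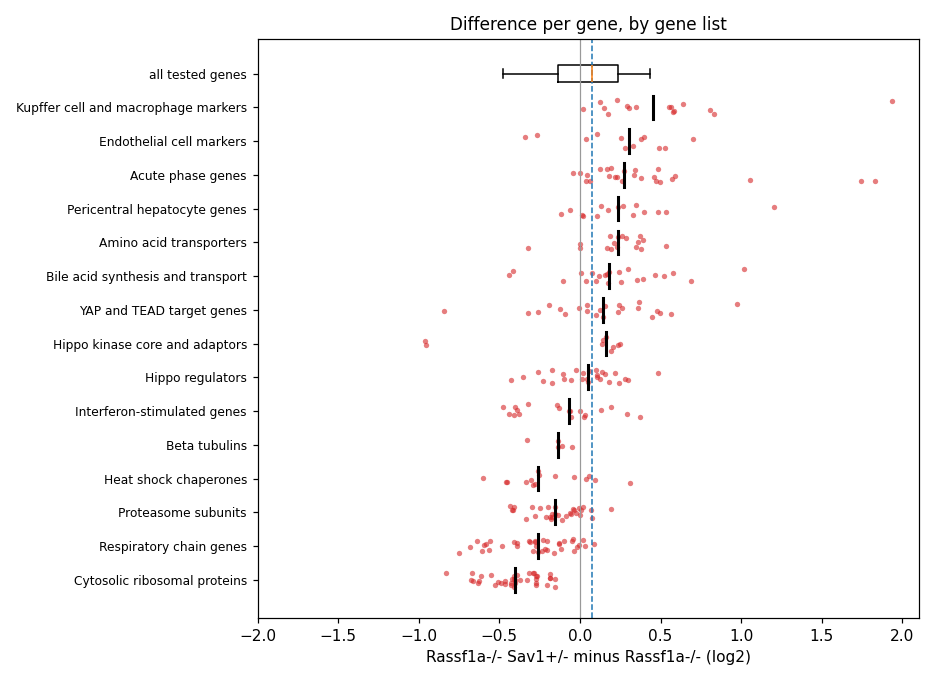
Difference between the double genotype and Rassf1a-/- (log2, horizontal axis) for each tested gene of 15 lists; each point is 1 gene and each black bar the list's median, the box spans the quartiles of all 13152 genes with whiskers at the 5th and 95th percentiles, and the dashed line is the median of all genes (0.07). Every cytosolic ribosomal gene lies below 0 and every Kupffer cell marker above 0.

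Genes of pericentral hepatocytes, the cells around the central vein that respond to Wnt signals, were mostly higher. Of 15 tested, 13 were higher with a median of 0.24, and 3 (20%) had all 4 double-genotype arrays above, against 3.85% of all genes. Lgr5, a receptor for R-spondins and a Wnt target, read 8.13, 7.75, 7.12 and 7.65 in Rassf1a-/- and 9.10, 8.73, 8.25 and 9.39 in the double genotype. The difference was 1.21 (SE 0.33, adjusted p = 0.114), and wild type (8.41) and Sav1+/- (8.62) were nearer to the double genotype. Gulo, the last enzyme of vitamin C synthesis, differed by 0.48 (SE 0.14), and the glutamate carrier Slc1a2 by 0.54 (SE 0.19). Oat, ornithine aminotransferase, differed by 0.40 and overlapped. After median centring the list's median was 0.13, with 10 of 15 higher and none without overlap. Periportal genes were higher for 8 of 15, with a median of 0.01.

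Markers of cells other than hepatocytes were read next, and none was called. In whole liver, more cells of a type and more RNA per cell cannot be told apart. All 16 Kupffer cell and macrophage markers were higher, with a median of 0.45, and 1 of them (Marco) had no overlap (6.25%, against 3.85% of all genes). The list mean ran from 9.03 to 10.03 in Rassf1a-/- and from 9.71 to 10.59 in the double genotype. Adgre1, an adhesion receptor used to mark macrophages, read 9.74, 9.29, 9.50 and 10.24 against 11.40, 10.78, 10.13 and 9.79, a difference of 0.83 (SE 0.37, adjusted p = 0.311). Mpeg1, perforin-2, differed by 0.81 and C1qc, a complement subunit made by macrophages, by 0.64. Arrays 1 and 2 of the double genotype were the highest for all 3. On the low-Y arrays the list had a median of 0.11, with 10 higher and 6 lower. Without array 2 of Rassf1a-/- it was 0.26, and without array 1 of the double genotype 0.24. The markers were also higher in Sav1+/- than in wild type, for 16 of 16 with a median of 0.32. Array 2 of Sav1+/- had the highest list mean there, at 10.84. The other Sav1+/- arrays ran from 9.41 to 9.89, within the wild-type range of 9.36 to 10.11.

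Endothelial markers were higher for 10 of 12, with a median of 0.30, which was 0.20 with 8 higher after median centring. Vwf, the von Willebrand factor, read 6.99, 6.39, 7.01 and 7.15 in Rassf1a-/- and 7.61, 7.64, 7.34 and 7.75 in the double genotype, a difference of 0.70 (SE 0.23, adjusted p = 0.172). Robo4, a receptor of vessel walls, differed by 0.49. Clec4g, a lectin of the liver's sinusoids, went the other way at -0.34, with a second, dim probe set at 0.22. Collagen genes Col1a2 and Col3a1, made by stellate cells, differed by 0.52 and 0.48. The 5 tested lymphocyte markers of 16 listed were all higher with a median of 0.35. Over the 14 with a probe set, the list mean ran from 6.50 to 7.37 in Rassf1a-/- and from 6.67 to 7.12 in the double genotype. Stellate cell markers were higher for 9 of 12, with the lowest at -0.37. At an unadjusted p under 0.05 (limma), 3 of these 12 were higher and 1 was lower. Cholangiocyte markers were higher for 4 of 6, neutrophil markers for 2 of 3 and adipocyte and mesothelial markers for 2 of 5, beside 60.3% of all genes. The lowest neutrophil marker was at -0.81 and the lowest adipocyte or mesothelial marker at -0.93. At an unadjusted p under 0.05 (limma), each of these 2 lists had 1 lower and 0 higher genes, and the cholangiocyte list 1 higher. The part of these cells in the other differences was not tested. Onecut1 (HNF6), a factor of hepatocytes and bile ducts, differed by 0.82 (SE 0.25, adjusted p = 0.152), without overlap. The 14 hepatocyte markers tested, which define the tissue, averaged 13.17 to 13.26 in Rassf1a-/- and 13.23 to 13.37 in the double genotype, with a median difference of 0.04.

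Acute phase genes, which hepatocytes switch on in inflammation, were higher for 23 of 25 with a median of 0.27, and 20 were higher with a median of 0.16 after median centring. C4b, complement C4, read 12.45, 12.22, 12.04 and 12.16 against 12.61, 13.08, 12.59 and 12.87, a difference of 0.57 (SE 0.22, adjusted p = 0.260). Itih3, an inhibitor chain that binds hyaluronan, differed by 0.59. The largest values in the list, named after they were seen, belonged to the serum amyloids Saa2 (1.83, 95% interval -0.25 to 3.91) and Saa1 (1.74, -0.39 to 3.87), and to lipocalin Lcn2 (1.05, -0.47 to 2.58). Array 1 of Rassf1a-/- was as high as the double genotype for these 3: Saa2 read 12.20, 7.87, 8.23 and 8.96 against 10.38, 11.71, 10.10 and 12.39. The immediate early factor Jun read 8.15, 8.34, 7.76 and 8.38 against 8.95, 8.75, 8.83 and 8.46 (0.59, adjusted p = 0.230), and Jund, its relative, differed by 0.40.

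Of 22 genes of bile acid synthesis and transport 19 were higher with a median of 0.18, and 15 with a median of 0.07 after median centring. Nr1h4, which encodes the bile acid receptor FXR, was among the 3 that were lower without that centring. It read 10.42, 10.31, 10.47 and 10.31 in Rassf1a-/- and 9.83, 9.93, 9.92 and 10.17 in the double genotype, with no overlap and a difference of -0.41 (SE 0.12, adjusted p = 0.118). The sterol exporters Abcg5 and Abcg8 differed by 0.39 and 0.58, and the bile acid importer Slco1b2 by 0.47. Amino acid transporters were higher for 15 of 17 with a median of 0.24, which was 0.13 with 14 higher after median centring. Fatty acid oxidation genes and targets of PPAR alpha were lower for 17 of 25 with a median of -0.14. Acot1, an acyl-CoA thioesterase with the smallest p of these, differed by -1.01 (adjusted p = 0.228). With the Y-linked mean in the fit the list's median was -0.0035, and without array 1 of the double genotype it was 0.01. Atg4d, a protease that trims ATG8 proteins in autophagy, read 9.64, 9.79, 9.62 and 9.73 against 9.04, 9.06, 9.02 and 9.40, a difference of -0.56 (SE 0.12, adjusted p = 0.0765). Its step from wild type to Sav1+/- was -0.50. The autophagy list as a whole was split, with 14 higher and 17 lower.

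Genes next to Sav1 were checked for a local difference. Of the 20 nearest genes with a probe set 13 were tested, 9 were higher and 4 lower, and their median was 0.13. Psma3 was the 1 neighbour of 13 without overlap (7.69%, near the 5.96% of all genes), and 3 probe sets named for it gave -0.35, -0.33 and -0.34.

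The same loss of 1 Sav1 copy could be read in mice with Rassf1a, from 8 other arrays. No gene was called between Sav1+/- and wild type (0%, smallest adjusted p = 0.0748), and 1204 genes had an unadjusted p under 0.05 (9.15%). Of the 784 genes whose double-genotype arrays lay below Rassf1a-/-, 540 (68.9%) were also lower in Sav1+/- than in wild type, beside 54.1% of all genes. Of the 507 that lay above, 214 (42.2%) were also higher, beside 45.9% of all genes. Across the 13152 genes, which are not independent, the 2 differences had a Pearson correlation of 0.36. With the Y-linked mean in the fit it was 0.12, and the Y-linked signal was higher in the Sav1+/- arms of both comparisons.

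**Figure D5:**
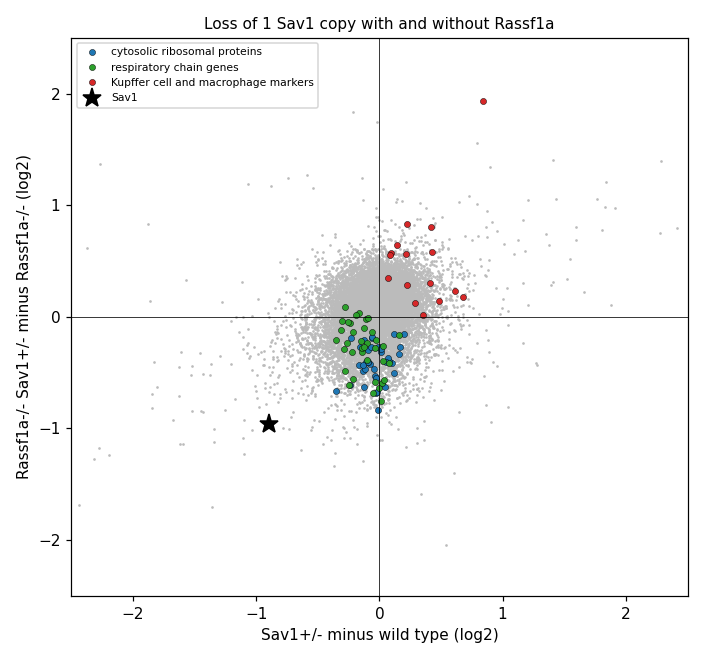
Log2 difference between genotypes labelled 1 Sav1 copy apart: Sav1+/- minus wild type (horizontal axis) and double genotype minus Rassf1a-/- (vertical axis). Each grey point is 1 of 13152 genes, of which 22 lie outside the axes. Sav1 (star) is at -0.90 and -0.96, ribosomal genes spread around -0.04 on the horizontal axis and -0.40 on the vertical one, and Kupffer cell markers lie above 0 on both.

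Whether the Sav1 step depended on Rassf1a was tested as the difference between the 2 steps. No gene passed (0%, smallest adjusted p = 0.316), and 1236 had an unadjusted p under 0.05 (9.4%). Among the smallest p-values, Alpl, the tissue alkaline phosphatase, had a step of 0.16 without Rassf1a and -0.99 with it, a difference of 1.15 (SE 0.23). Its means were 9.76 in wild type and between 8.63 and 8.79 in the other 3 genotypes, so wild type stood apart. Slc9a8, a sodium and proton exchanger, stepped by 0.49 and -0.62, and Rhbdd2 by 0.14 and -0.83. Pigs, Nxpe2 and Agpat1 had step differences of 0.93, 0.99 and 0.82. In the opposite direction, Ifi27l2a, an interferon-induced gene, stepped by -0.41 and 1.27, a difference of -1.69 (SE 0.37). Lsm1 stepped by -0.70 and 0.31, Slirp by -0.68 and 0.20, and Ciao2a by -0.53 and 0.10. Sntg2 and Slc35d2 had step differences of -0.90 and -0.86. Interferon-stimulated genes as a list were lower for 13 of 19 with a median of -0.07, and 18 of the 19 were higher in Sav1+/- than in wild type, with a median of 0.48. The first of these medians was -0.36 on the low-Y arrays, where 15 were lower, and -0.18 with median centring. It was -0.0077 without array 3 of the double genotype and -0.18 without its array 2.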

How the data were processed

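The deposited table holds log2 signals that, per the submitters' processing notes, the authors made with Affymetrix Expression Console. The summarization method, software version and genome build are not stated in the labels. Arrays were grouped by the genotype label. Of 35556 probe sets, 1621 named several genes and 12146 none; 21698 of the 21789 naming 1 gene matched a RefSeq gene (GRCm38.p6). Genotype means of all 16 arrays were fitted with limma 3.58.1 in R 4.3.3 (12 residual degrees of freedom, moderated variance), after tests on simulated data.

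The comparison, gene lists and alternatives were chosen with earlier results of these data known. Genes named were: called ones; per direction up to 12 with the smallest p and 8 with the largest difference, both without overlap; up to 4 per list by p; up to 6 per direction for the test between steps; Sav1, Rassf1, Tbk1, beta tubulins and the Hippo core. Gene models without a proper name were left out, 1 gene that the rule names is not reported here, and other exceptions are stated. Alternatives changed the filter (none, 60th percentile), probe set choice, arrays used, scaling, array weights, variance moderation and the Y-linked covariate. Arrays of low Y-linked signal have a mean under 7.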

Additional observations from a re-analysis of the deposited data

Results flagged for a closer look

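Of 228 sets of 4 arrays (114 genes in each of the 2 genotypes), 11 held 1 array far from the other 3, and chance alone marks about 1 in 20. Array 2 of the double genotype gave 5 of them: Rpl26 at 10.7 with the others at 11.01 to 11.04, Ndufa2 at 9.87 (others 10.22 to 10.27), Knl1 at 3.59 (5.60 to 5.95), Mir6516 at 7.43 (8.56 to 8.62) and Slc9a8 at 10.9 (10.50 to 10.53). In 4 of these genes that array was the low one, and it also had the lowest ribosomal mean of all 16 arrays. Array 4 of the double genotype was high for Lsm1 at 7.39 (7.17 to 7.19) and Atg4d at 9.40 (9.02 to 9.06), and array 1 for C1qc at 11.8 (10.89 to 11.01). Array 2 of Rassf1a-/- was high for Slirp at 10.3 (9.98 to 10.02) and Rpl6 at 11.8 (11.39 to 11.43), and array 1 was low for Leap2 at 10.8 (11.17 to 11.20).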

How the results depend on the processing

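The number of genes called depended on the settings. It was 0 with no brightness filter, with every probe set tested, with the 8 compared arrays alone, on the low-Y arrays and with quantile normalization. It was 55 with a filter at the 60th percentile, 74 with median centring, 68 with trended and robust moderation and 1979 (800 of them higher) with array weights. The first 3 of these shared 41 genes, all lower. Leaving out 1 array gave 0 to 209 calls: 123 without array 2 of Sav1+/-, 209 without array 4 of the double genotype, 78 shared by both. Sav1 then ranged from -1.06 to -0.84. It passed at -0.96 with the stricter filter and trended moderation, -1.07 with median centring, -1.05 with array weights, and without either of the 2 arrays just named. Lrrc51 was too dim for the stricter filter. The test between steps gave 0 to 1 calls over the leave-outs (Alpl, without array 3 of the double genotype) and 0 otherwise.

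Signs turned for Tubb5 with quantile normalization (0.0203) and array weights (0.0104), and for Rhbdd2 with array weights (-0.0248). Over the leave-outs Tubb5 ran from -0.130 to 0.0111, Tubb6 from -0.210 to 0.0298 and Tbk1 from -0.187 to 0.0918, each crossing 0. The causes were not tested. Only chosen results, and not all genes, were followed value by value under the alternatives. Of these values 2837 kept direction and side of the threshold, 16 lost the call, 191 gained one and 8 turned sign. No paired analysis was possible because replicate numbers are absent from the labels. With 4 arrays a group, and dim genes near background, small differences may have been missed, and differences inside the intervals given above were not excluded.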
